A study of Mus musculus with 6 samples.

Results

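The genes described here are 41 genes known for germ cells, the piRNA pathway and meiosis, of 24453 gene symbols counted. The cells were sorted from newborn mice and are labelled as hair follicle. The members were chosen by gene symbol from their known roles, with the difference between the mutant and control libraries of these data already in view, so their differences are given as a description. RNA sequencing covered 6 libraries from back skin at postnatal day 0, 3 of the genotype Ring1a-/- Ring1b-/I53A and 3 labelled only as control. Ring1a and Ring1b, encoded by Ring1 and Rnf2, carry the ubiquitin ligase function of Polycomb repressive complex 1 (PRC1), a chromatin silencer, and I53A is known as a substitution that weakens this function in Ring1b. The mutants combine loss of Ring1a with 1 null and 1 I53A allele of Ring1b, so these alleles cannot be told apart here. The labels do not name the alleles of the controls, a Cre driver or promoter, or whether the libraries of a group came from separate animals, so p-values measure the spread between these libraries, which may in part be technical.

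Germ cells use a set of genes that other tissues keep silent. Tudor proteins and PIWI proteins make and use piRNAs, small RNAs that silence transposons. Meiosis needs its own cohesins, the synaptonemal complex that joins homologous chromosomes, and the enzymes that cut and exchange DNA strands. In somatic cells many of these genes are known to be held silent by DNA methylation and by a PRC1 variant that contains Pcgf6, L3mbtl2, E2f6, Mga and Max. Of these, E2f6 binds E2F-type sites, and Mga with Max binds the E-box CACGTG.

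The 6 libraries held between 14335156 and 18811587 counts, and levels are given as CPM, reads scaled by TMM effective library sizes, where 1 CPM equals 14.7 to 18.2 reads. For a gene without reads the upper limit is 3 counts, which is 0.164 to 0.204 CPM in a library and covers counting error only. Ring1, a check of the labels, was at 16.8, 22.1 and 21.1 CPM in controls and at 3.23, 7.10 and 4.88 CPM in mutants (log2 fold change -1.98, SE 0.33, adjusted p = 0.0113 by edgeR). Rnf2 was at 59.8 ± 6.93 and 67.1 ± 3.68 CPM (SD, n = 3 each) and did not pass (edgeR, adjusted p = 0.736). The sort text in the labels describes a Sca1-positive interfollicular gate, while the source and cell type labels say hair follicle. Of 8 genes listed for follicle epithelium, 6 had a positive and 2 a negative log2 fold change. The follicle regulators Sox9 and Lhx2 averaged 536 and 334 CPM in controls and 575 and 248 CPM in mutants. Lgr5, a stem cell receptor, fell from 178 ± 37.7 to 83.7 ± 1.98 CPM (edgeR, adjusted p = 0.0125). The keratin genes Krt17 (208 ± 23.1 and 348 ± 84.2 CPM) and Krt5 (7911 ± 804 and 9845 ± 1706 CPM) were called up with the replicate number as a block (edgeR, adjusted p = 0.00366 and 0.0476) and not without it (0.0766 and 0.477). Krt14, Epcam and Itga6 were not called in either fit. Ly6a, the gene of Sca1, was at 0.852 and 1.23 CPM. Krt1, a keratin of the interfollicular suprabasal layers, was at 3358 ± 764 and 2126 ± 510 CPM, called lower with the block (edgeR, adjusted p = 0.00154, against 0.195 without). The part of these differences in the levels below was not tested.

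Promoter sequences are given first for 6 members with an E-box that differ in their behaviour below. They were taken from RefSeq (GRCm38.p6, the assembly of mm10), from 250 bases before to 50 bases after the start site, 5′ to 3′ on the strand of the gene, and 35 of the 41 members had an entry. Capitals mark an E-box (CACGTG) or an E2F-type motif (GCGGGAA or its reverse complement TTCCCGC). Rbm46 was silent in controls and transcribed in mutants, Tdrd1 and Stag3 were higher in every mutant library from a measurable control level, and Taf7l appeared at a low level. Hormad1 and Sycp1 had no read in any of the 6 libraries. All 6 printed windows hold an E-box, while with 1 window per gene 14 of 35 members had one. Tdrd7, Smc1b and Dmc1, also higher in every mutant library, had no E-box and are not printed.
Rbm46 (chr3:82876434-82876733, minus strand): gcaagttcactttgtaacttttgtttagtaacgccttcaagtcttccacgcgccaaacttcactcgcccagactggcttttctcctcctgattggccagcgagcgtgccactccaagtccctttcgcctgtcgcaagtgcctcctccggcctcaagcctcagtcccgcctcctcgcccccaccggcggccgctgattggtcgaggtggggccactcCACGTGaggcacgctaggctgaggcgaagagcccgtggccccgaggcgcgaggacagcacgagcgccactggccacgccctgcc
Tdrd1 (chr19:56825959-56826258, plus strand): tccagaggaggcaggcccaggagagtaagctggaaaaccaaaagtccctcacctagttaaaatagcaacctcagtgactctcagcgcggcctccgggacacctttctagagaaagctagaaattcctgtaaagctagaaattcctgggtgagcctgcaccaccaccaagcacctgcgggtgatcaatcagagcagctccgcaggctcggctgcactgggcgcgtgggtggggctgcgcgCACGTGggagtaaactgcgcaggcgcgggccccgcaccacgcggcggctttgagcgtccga
Stag3 (chr5:138280259-138280558, plus strand): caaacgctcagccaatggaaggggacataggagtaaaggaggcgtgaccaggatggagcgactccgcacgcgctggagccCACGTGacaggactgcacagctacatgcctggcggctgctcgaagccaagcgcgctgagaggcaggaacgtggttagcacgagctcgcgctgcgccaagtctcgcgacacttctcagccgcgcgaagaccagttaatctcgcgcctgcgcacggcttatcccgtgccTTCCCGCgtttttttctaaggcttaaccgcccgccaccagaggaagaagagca
Taf7l (chrX:134476441-134476740, minus strand): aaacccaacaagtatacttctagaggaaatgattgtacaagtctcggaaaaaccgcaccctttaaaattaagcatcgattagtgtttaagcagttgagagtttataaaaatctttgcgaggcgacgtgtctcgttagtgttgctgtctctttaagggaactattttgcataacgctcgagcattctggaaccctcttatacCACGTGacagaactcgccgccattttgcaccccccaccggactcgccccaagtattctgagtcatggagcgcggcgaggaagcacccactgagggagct
Hormad1 (chr3:95559427-95559726, plus strand): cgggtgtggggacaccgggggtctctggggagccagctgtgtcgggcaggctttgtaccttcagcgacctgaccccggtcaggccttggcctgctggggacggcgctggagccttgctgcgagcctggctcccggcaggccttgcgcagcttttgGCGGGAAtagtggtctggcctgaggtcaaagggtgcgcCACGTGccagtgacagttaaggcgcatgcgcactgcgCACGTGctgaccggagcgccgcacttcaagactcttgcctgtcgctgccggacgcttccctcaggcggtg
Sycp1 (chr3:102936051-102936350, minus strand): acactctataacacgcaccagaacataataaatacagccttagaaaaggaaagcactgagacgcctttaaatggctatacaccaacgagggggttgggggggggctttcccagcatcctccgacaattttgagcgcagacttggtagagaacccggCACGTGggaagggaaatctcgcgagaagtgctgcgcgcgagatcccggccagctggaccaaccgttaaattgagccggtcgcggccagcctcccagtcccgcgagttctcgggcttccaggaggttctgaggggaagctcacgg

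In the 4 upper promoters the distance of the E-box from the start site varied. Its first base lay at position -34 in Rbm46, -11 in Tdrd1 and -49 in Taf7l, counted from the start site as 0, and at -170 in Stag3. RefSeq gives Tdrd1 a total of 3 windows, of which the first is printed, and the E-box lay at -77 in the second and was not in the third. Stag3 also carried an E2F-type motif at -3. Hormad1 held 2 E-boxes, at -57 and -20, and an E2F-type motif at -95, and Sycp1 held 1 E-box at -94. The same letters were therefore present in promoters of members that were higher in mutants and of members that stayed without reads.

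Across the members the E-box was frequent. With 1 window per gene, 14 of 35 members (40%) had an E-box, against 7.24% of 27025 genes. An E2F-type motif was found in 9 of 35 (25.7%), against 4.66% of all genes. The T-box-type motif TCACACC, searched because Mga also has a T-box domain, was in 3 of 35 (8.57%), against 3.96%. Both strands were searched, the E-box reads the same on both, and none of the 3 motifs contains another. GC content was also higher in the members (median 60.3%, against 52.7%), which bears on how often such letters occur. Among genes expressed in controls, whose median GC content was also 60.3%, the E-box was in 9.6% and the E2F-type motif in 7.85%. CpG dinucleotides were at 0.704 times the number given by base composition (median of members), against 0.389 for all genes and 0.188 for genes silent in both groups, and slightly below the 0.731 of genes expressed in controls.

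**Figure D1:**
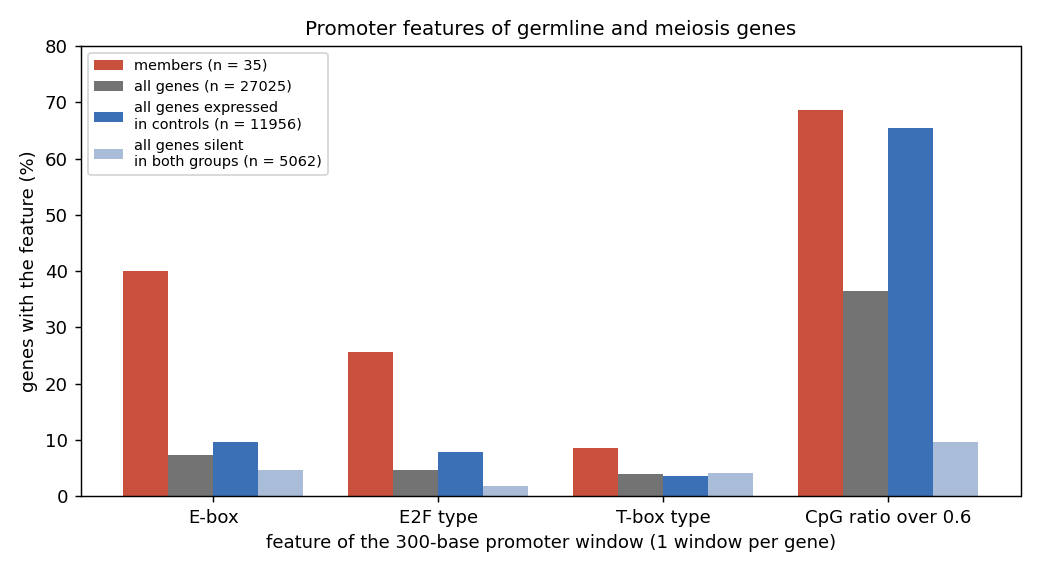
Bars give the percent of genes whose 300-base promoter window has an E-box, an E2F-type motif, a T-box-type motif or a CpG observed over expected ratio above 0.6, for the members (n = 35) and for all genes, genes expressed in controls and genes silent in both groups. The member bars stand at 40% for the E-box and 25.7% for the E2F-type motif, above the other 3 sets, while 68.6% of members and 65.5% of genes expressed in controls have a CpG ratio above 0.6.

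Motifs were found both in members that were higher in mutants and in the others. Of the 7 members with a promoter entry whose 3 mutant libraries all lay above the 3 controls, 4 had an E-box (57.1%), against 10 of the other 28 (35.7%). An E2F-type motif was in 2 of these 7 and in 7 of the other 28. These groups were formed after the values were seen and the difference was not tested. Among the 14 silent members with an entry, 6 had an E-box, among them Mael, Tdrd9, Mov10l1 and Slc25a31 beside Hormad1 and Sycp1. Tdrd7, which rose, had none of the 3 motifs in any of its 3 windows.

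Of the 21 members that were silent in controls, 16 were also silent in mutants. A gene was counted as silent in a group when its reads summed to at most 9 over the 3 libraries (3 per library), and as reactivated when it was silent in controls and had at least 10 reads in every mutant library. Genes with more than 9 summed control reads were counted as expressed in controls, however low their level. Of the 41 members, 21 were silent in controls (51.2%), against 35% of all 24453 symbols. Only 1 of these 21, Rbm46, was reactivated, where 0.817% of all symbols silent in controls met the same rule (70 of 8566). A further 4 members (Taf7l, Nanos3, Stk31 and Mei1) were partly detected in mutants (9.76%, against 3.07% of all symbols), 16 were silent in both groups (39%, against 31.7%) and 20 were expressed in controls (48.8%, against 65%). Among symbols silent in controls, 7746 of 8566 were silent in mutants too, a larger share than the 16 of 21 members. This difference was not tested, and nothing is read from it, because the members were chosen with the comparison known. Without mutant 2 the rule named 2 members, Rbm46 and Taf7l.

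**Figure D2:**
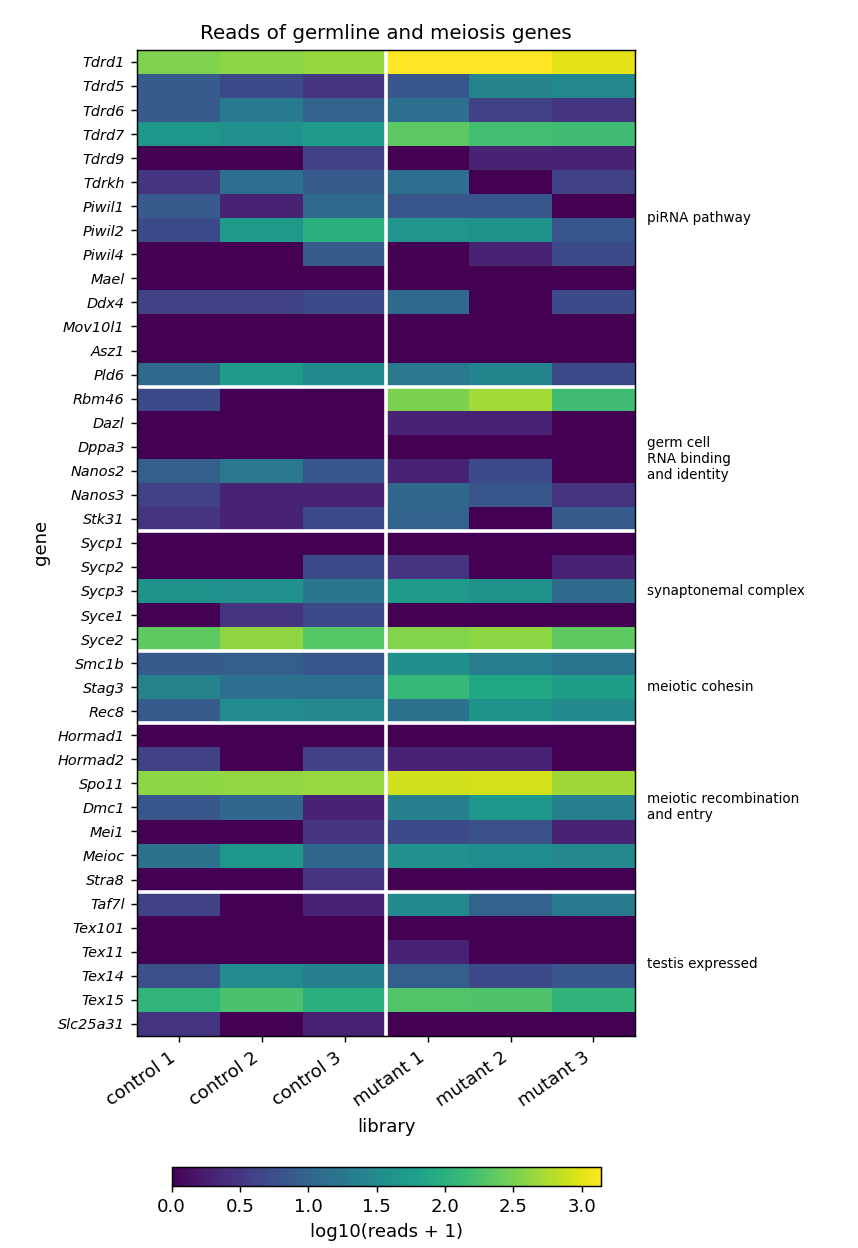
Colour gives log10(reads + 1) of each member (rows, grouped by role) in each library (columns, controls to the left of the white line). Rbm46 turns from 0 to 4 reads in controls to 148 to 504 in mutants, Tdrd1 and Spo11 are bright in all 6 libraries, and 7 members are dark throughout.

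Rbm46 encodes a germ cell protein that binds RNA and is needed for meiosis. The gene (chromosome 3, 82837228 to 82876483, minus strand, GRCm38) had 4, 0 and 0 reads in controls and 326, 504 and 148 reads in mutants. In CPM the mutants were at 17.9, 30.1 and 9.89, a mean of 19.3 ± 10.2 (SD, n = 3), so the highest and the lowest mutant library differed about as widely as the mean itself. All 4 control reads came from control 1, and the groups did not overlap. The ratio of summed reads per effective library was 236 (exact 95% interval 91.9 to 868, counting error only), and the fitted log2 fold change was 7.72 (SE 0.84). The fitted value depends on the few control reads and ran from 7.12 to 11.3 when 1 library was left out, and the gene was called each time. The nearest protein-coding gene with counts, Lrat, 16096 bases away, was at 0.185 and 0.375 CPM and was too low to be tested. Per kilobase of exon the mutant level of Rbm46 was 7.71 CPM.

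Of the 41 members, 14 had enough reads to be tested, and 2 of these (Rbm46 and Smc1b) reached the minimum of 0.620 CPM only in mutant libraries, so that being higher there was a condition of their being tested. Dmc1 reached the minimum in 1 control and 3 mutant libraries. As 3 libraries were needed, its test also depended on the mutants. Over all 14345 genes tested, 2.59% were called up and 0.404% down at an adjusted p under 0.05. Of the 14 tested members, 3 were called up (Rbm46, Tdrd1 and Tdrd7) and 0 down. Counts of called members describe a list chosen with this comparison known, and nothing is read from them about the list. With the replicate number as a block, 5 were called up, adding Stag3 and Spo11, where 6.09% of all genes were called up. The median log2 fold change was 0.60 for the 14 tested members and 0.00 for all genes tested.

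In 7 of the 14 tested members every mutant library lay above every control, where 12.1% of all tested genes did, and in 0 every mutant lay below, where 9.15% did. The list was chosen with this comparison known, and the tests of Rbm46, Smc1b and Dmc1 rested on their mutant libraries. Nothing is read from these counts about the list. The 7 were Tdrd1, Tdrd7, Rbm46, Smc1b, Stag3, Spo11 and Dmc1, and Taf7l did so too but was too low to be tested. Mutant 3 was the lowest mutant library in 5 of these 8. Nanos2, also too low to be tested, had every mutant below every control. The summed level of all 41 members was 88.2, 111 and 87.4 CPM in controls and 206, 230 and 159.98 CPM in mutants, with Tdrd1, Spo11, Syce2 and, in mutants, Rbm46 as its main parts.

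**Figure D3:**
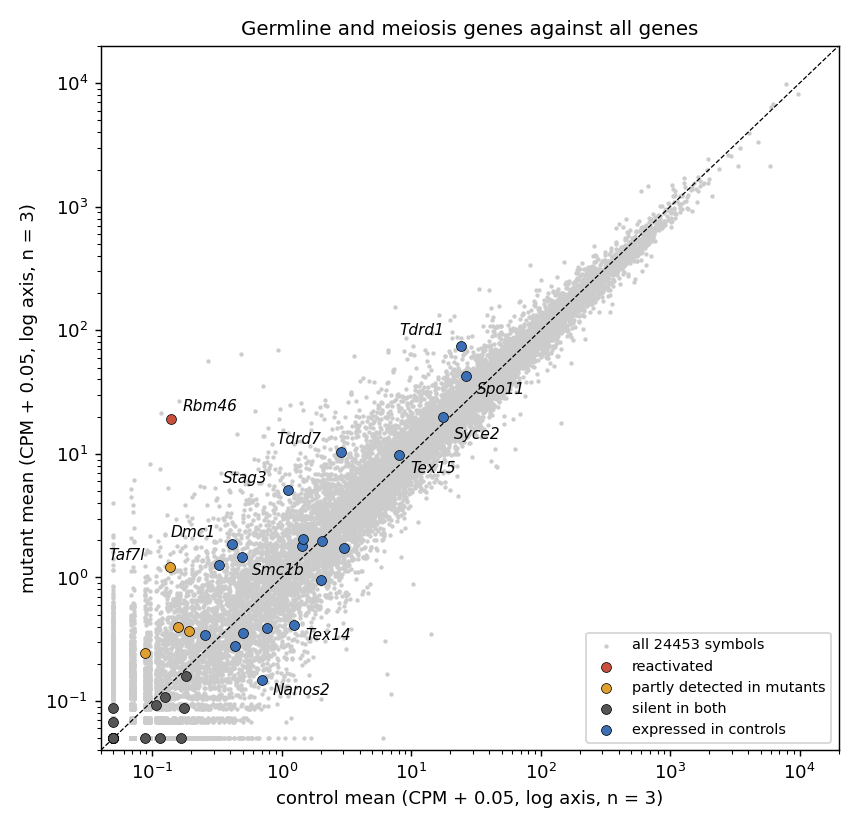
Each point is the mean level of 1 gene in controls (x) and mutants (y), both as CPM + 0.05 on log axes, for all 24453 symbols (grey) and the members, coloured by class. Rbm46 lies far above the dashed line of equal level, Tdrd1, Tdrd7 and Stag3 lie above it at higher control levels, and Syce2 and Tex15 lie near it.

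Among the Tudor-domain genes, Tdrd1 and Tdrd7 were both called up. Tdrd1, a scaffold that binds PIWI proteins in the cytoplasmic germ granules of male germ cells (chromosome 19, 56826209 to 56870012), was at 23.0, 24.2 and 24.9 CPM in controls and at 75.0, 81.9 and 67.8 CPM in mutants. Controls were tightly grouped, every mutant was above them, and the group means were 24.03 ± 0.991 and 74.9 ± 7.07 CPM (SD, n = 3 each, log2 fold change 1.64, SE 0.17). It was called without any 1 library, with a log2 fold change of 1.57 to 1.70. Both flanking genes were expressed at high levels and were not called, Ccdc186 at 163 and 154 CPM and Vwa2 at 111 and 186 CPM. Vwa2 had 1561, 1418 and 2451 reads in controls and 3749, 2719 and 2827 in mutants (log2 fold change 0.73, SE 0.19, edgeR, adjusted p = 0.0805).

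Tdrd7, a Tudor protein of germ granules that is also known from the lens (chromosome 4, 45965334 to 46034761), was at 3.07, 2.38 and 3.07 CPM in controls and at 12.1, 9.18 and 9.89 CPM in mutants. The groups did not overlap and the group means were 2.84 ± 0.393 and 10.4 ± 1.53 CPM (log2 fold change 1.87, SE 0.33). The call was lost without control 1, mutant 1 or mutant 2, at log2 fold changes of 1.93, 1.75 and 1.95. Its neighbour Tmod1 was at 1.30 and 1.15 CPM.

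Other Tudor members did not share this pattern. Tdrd5 had 7, 4 and 2 reads in controls and 6, 24 and 28 in mutants, so mutant 1 lay within the controls. Tdrd6 had 7, 19 and 9 against 13, 3 and 2 reads. Tdrd9 had at most 3 reads in any library. Tdrkh, a partner of PIWI proteins, had 2, 13 and 7 against 13, 0 and 3 reads, and 36.7% of its exon length is shared with Oaz3 on the other strand, so that without a stated strand setting their reads cannot be told apart.

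The PIWI proteins and the factors that make or load piRNAs had no member whose mutant libraries all lay above the controls. Piwil2 had 4, 49 and 98 reads in controls and 42, 39 and 6 in mutants, a spread within each group wider than the difference between them (log2 fold change -0.82, SE 0.94). Piwil1 had 7, 1 and 11 against 6, 6 and 0 reads, and Piwil4 had 7 reads in controls, all in control 3, against 5 in mutants. Pld6, a mitochondrial membrane protein of piRNA production, was at 1.95 ± 1.34 and 0.897 ± 0.612 CPM with overlapping groups. Mael, Mov10l1 and Asz1, all needed for transposon silencing in male germ cells, had 0 reads in all 6 libraries. Ddx4, the helicase also called Vasa that defines germ cells, had 3, 3 and 4 reads against 11, 0 and 4, just above the limit for silence in controls.

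Factors of germ cell identity stayed close to zero apart from Rbm46. Dazl, an RNA-binding protein of germ cells, had 0 reads in controls and 1, 1 and 0 in mutants. Dppa3 had no read. Nanos3, which protects primordial germ cells, had 3, 1 and 1 reads against 10, 6 and 2 (ratio 3.47, exact 95% interval 1.24 to 11.97, counting error only). Its groups overlapped, with mutant 3 (0.134 CPM) below control 1 (0.204 CPM). Nanos2, which maintains male germ cells, had the opposite order, with 8, 17 and 6 reads in controls and 1, 4 and 0 in mutants (ratio 0.156, 0.0473 to 0.404). Every mutant was below every control for Nanos2, but it was too low to be tested and 49.0% of its exon length overlaps an antisense gene model. Stk31 had 2, 1 and 4 reads against 9, 0 and 7.

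The meiotic cohesins were the role in which every member was expressed in controls. Stag3, the meiosis-specific STAG subunit (chromosome 5, 138280240 to 138312393), was at 1.64, 0.816 and 0.738 CPM in controls and at 6.91, 4.35 and 3.81 CPM in mutants. The groups did not overlap, with means of 1.06 ± 0.497 and 5.02 ± 1.65 CPM (log2 fold change 2.24, SE 0.54). Stag3 was not called in the fit without the block and was called with the block (log2 fold change 2.27) and with DESeq2. Its neighbour Gpc2 begins 235 bases away and was at 14.6 and 20.6 CPM, not called.

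Smc1b, the meiotic SMC subunit, had 7, 8 and 6 reads in controls and 37, 20 and 15 in mutants. It did not overlap between groups and was not called (log2 fold change 1.67, SE 0.70). Its close neighbour Ribc2, 114 bases away, had 0 reads in controls and 3, all in mutant 1, in mutants. Rec8, the meiotic kleisin, was at 1.38 ± 0.8002 and 1.76 ± 0.881 CPM, with overlapping groups.

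Spo11 and the other recombination genes ranged from abundant to absent. Spo11, the enzyme that makes the DNA breaks of meiosis (chromosome 2, 172977700 to 172993576), was transcribed in the control libraries, at 27.3, 26.4 and 25.5 CPM. Mutants were at 45.1, 51.0 and 32.96 CPM, all above the controls (means 26.4 ± 0.892 and 43.0 ± 9.19 CPM, log2 fold change 0.70, SE 0.21). It was not called without the block and was called with it (0.68) and with DESeq2. The flanking genes Bmp7 (458 and 552 CPM) and Rae1 (22.2 and 25.2 CPM) were not called, and no annotated exon of another gene overlaps Spo11.

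Dmc1, the meiotic strand-exchange protein, had 6, 10 and 1 reads in controls and 22, 46 and 22 in mutants, without overlap and not called (log2 fold change 2.30, SE 0.86). Meioc, needed to stay in meiosis, was at 1.41 ± 1.14 and 1.996 ± 0.0764 CPM with overlap. Hormad1, which marks unpaired chromosome axes, had no read, and Hormad2 had 6 reads in controls and 2 in mutants. Mei1 had 0, 0 and 2 reads against 4, 5 and 1. Stra8, the retinoic acid target that starts meiosis, had 2 reads, both in control 3, and 0 in mutants.

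No gene of the synaptonemal complex was called. Syce2, a central element protein, was at 15.7, 25.7 and 11.4 CPM in controls and 19.8, 24.1 and 15.2 CPM in mutants, with overlap, and its log2 fold change of 0.17 (SE 0.32) changed sign when control 3 or mutant 2 was left out (-0.06 and -0.00). Sycp3, of the lateral element, was at 2.01 ± 0.966 and 1.92 ± 1.03 CPM. It shares 52.2% of its exon length with Chpt1 on the other strand, which was at 11.7 and 12.3 CPM. Sycp1, the transverse filament, had no read, Sycp2 had 4 reads in controls and 3 in mutants, and Syce1 had 6 and 0.

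**Figure D4:**
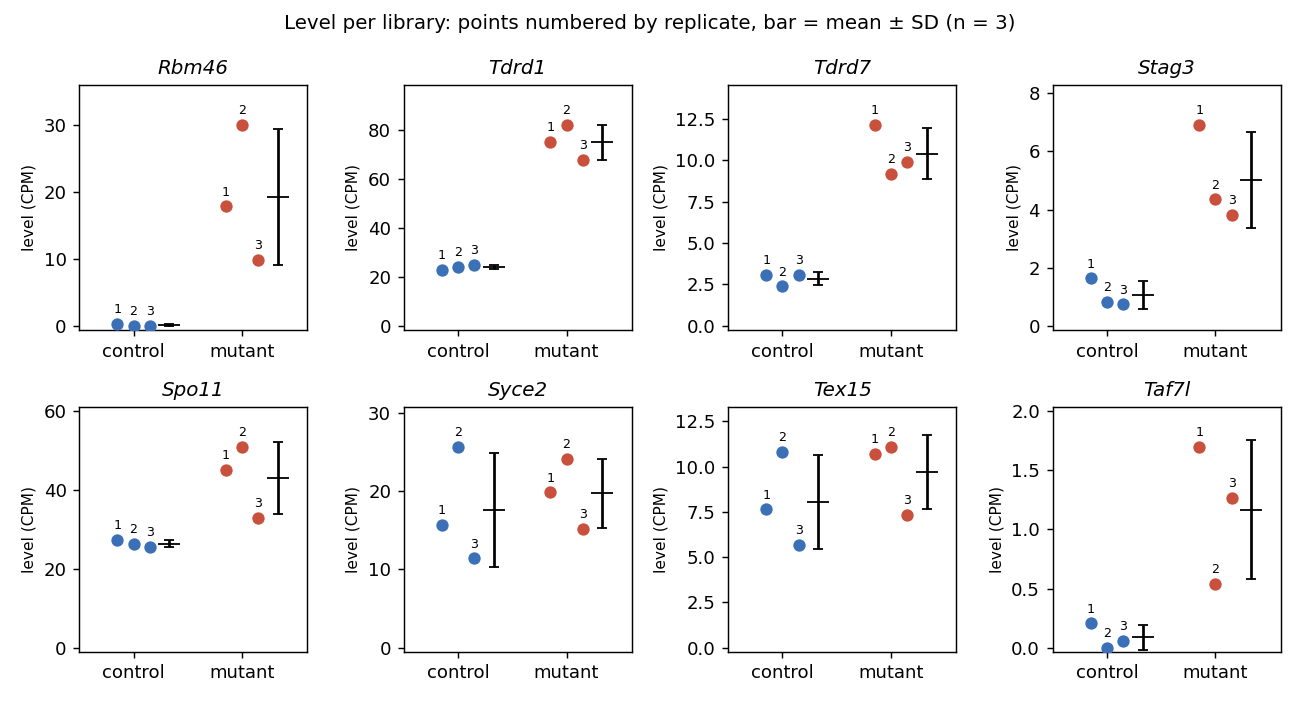
Points give the level in CPM of 8 members in each library, numbered by replicate, with the mean ± SD of each group (n = 3) beside them. Mutants lie above all controls for Rbm46, Tdrd1, Tdrd7, Stag3, Spo11 and Taf7l, and the groups overlap for Syce2 and Tex15.

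Among the remaining testis genes, Taf7l, a TFIID-associated factor of spermatogenesis on the X chromosome, had 3, 0 and 1 reads in controls and 31, 9 and 19 in mutants. The ratio was 14.2 (exact 95% interval 5.28 to 54.0, counting error only), the groups did not overlap, and mutant 2, with 9 reads, kept it just under the limit for reactivation. Tex15, a partner of the piRNA machinery, was at 7.63, 10.8 and 5.68 CPM in controls and 10.7, 11.1 and 7.35 CPM in mutants, with overlap (log2 fold change 0.28, SE 0.33). Tex14, a protein of the bridges between germ cells, had 5, 32 and 22 reads against 8, 4 and 6, with overlap. Tex101 had no read, Tex11 had 1 in mutant 1, and Slc25a31 had 3 in controls and 0 in mutants.

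Per kilobase of exon, the order of levels in controls was Syce2 (8.93 CPM), Spo11 (6.73) and Tdrd1 (4.42), then Sycp3 (1.59) and Pld6 (1.11). In mutants it was Tdrd1 (13.8 CPM), Spo11 (10.97), Syce2 (10.01) and Rbm46 (7.71), then Tdrd7 (2.63). Exon lengths came from all GENCODE M21 exons of a gene, so these values serve only for the order. On this scale the libraries of Syce2 and Spo11 overlapped in controls and those of Tdrd1 lay below those of Spo11, while in mutants Tdrd1 and Spo11 overlapped and Tdrd7 lay below Rbm46.

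Among genes of the same processes outside the 41, 1 was called up. Of 73 such genes listed, 71 were in the files and 26 were tested, and the 1 called up and 0 called down stand beside 2.59% and 0.404% of all tested genes, so the share is near that of genes in general. That gene was Ddx43, a DEAD-box helicase of the testis (chromosome 9, 78395777 to 78423587), at 0.613, 1.07 and 0.397 CPM in controls and 8.497, 8.11 and 5.35 CPM in mutants (log2 fold change 3.39, SE 0.51, edgeR quasi-likelihood test, adjusted p = 0.00768). With the block Ybx2 (12.4 ± 3.15 and 22.3 ± 6.21 CPM, adjusted p = 0.0265) and Hspa2 (14.9 ± 9.88 and 35.8 ± 23.2 CPM, adjusted p = 0.00666) were called too, in edgeR, so that 3 of 26 were called up where 6.09% of all tested genes were. Their adjusted p without the block were 0.189 and 0.293. The median log2 fold change of the 26 was -0.34. Among the 26, every mutant lay above every control for Ddx43, Ccdc36, Ybx2 and Nr6a1, and below for Nobox, Tdrd3 and Mnd1. Over all tested genes 12.1% lay wholly above and 9.15% wholly below. By the rule on reads 41 of the 71 were silent in controls and 0 were reactivated, while 6 were partly detected, among them Acr with 0, 0 and 5 reads against 31, 18 and 8 and Cpeb1 with 0, 0 and 2 against 17, 8 and 6. The E-box was in 9 of 55 promoters of these genes (16.4%) and the E2F-type motif in 7 (12.7%).

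Transcripts of the known repressors of germline genes were present in both groups. Of 14 genes of the PRC1 variant with Pcgf6, all were tested and Ring1 was the 1 called. Mga was at 409 ± 48.4 and 436 ± 27.9 CPM, Max at 139 ± 17.5 and 153 ± 20.4, E2f6 at 35.5 ± 5.52 and 41.8 ± 11.05, Pcgf6 at 28.8 ± 8.93 and 27.2 ± 7.58, and L3mbtl2 at 14.8 ± 3.02 and 14.7 ± 1.94 CPM. None of 15 genes of DNA methylation, H3K9 methylation and other silencing was called. Of these, 13 had a negative and 2 a positive log2 fold change, while 49.7% of all tested genes had a positive one. Every mutant lay below every control for Dnmt1, Uhrf1, Smchd1, Ezh2 and Eed, where 9.15% of all tested genes did. The difference of the 15 from all genes was not tested. With the block 1345 of the 14345 tested genes were called in edgeR, 873 of them up and the rest down. Among the 15, 3 fell with the block. These were Ezh2, the H3K27 methyltransferase (129 ± 10.2 and 84.5 ± 11.7 CPM, adjusted p = 0.0146), Uhrf1, which guides Dnmt1 (104 ± 31.5 and 67.0 ± 14.7 CPM, adjusted p = 0.0155), and Smchd1 (175 ± 21.4 and 121 ± 0.682 CPM, adjusted p = 0.0199). Their adjusted p without the block were 0.0869, 0.242 and 0.102.

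Most markers of germ cells themselves had few reads. Of 12 listed, Sohlh2 and Figla had no read, Sohlh1 had 1 read, Pou5f1 had 3 reads in controls and 1 in mutants, and Nanog had 8 and 15. Sall4 had 0, 0 and 3 reads in controls and 3, 14 and 24 in mutants, and Prdm14 had 4, 0 and 2 against 0, 1 and 19. The summed level of the 12 was 76.8 to 341 CPM in controls and 154 to 362 CPM in mutants, nearly all from Tfap2c and Zbtb16, which skin epithelium also expresses. None was called, and Tfap2c (68.9 ± 19.23 and 123 ± 26.0 CPM) passed with the block (edgeR, adjusted p = 0.00255). Of the 4 germ cell markers tested, 3 had a positive and 1 a negative log2 fold change. The negative one was Nobox, with 24, 24 and 23 reads in controls and 6, 17 and 14 in mutants (log2 fold change -0.96, SE 0.68). Every mutant was below every control for Nobox. Of the markers of other cell types in skin, none of the tested genes was called (6 of 6 for fibroblasts, 4 of 5 for melanocytes, 2 of 3 for endothelium, 3 of 3 each for immune and Schwann cells, and 0 of 3 for muscle). Their summed levels overlapped between groups, for example 255 to 428 CPM against 216 to 370 CPM for fibroblasts and 15.1 to 58.9 against 12.2 to 23.2 CPM for immune cells. In bulk libraries more cells with a transcript and more transcript per cell cannot be told apart.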

How the data were processed

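RNA sequencing libraries of 3 control and 3 mutant samples were analysed from the deposited whole-number read counts per gene symbol, whole numbers whose totals differ between libraries. The submitters' processing notes name HTSeq 0.6.1, TopHat2 2.0.13, DESeq2 1.6.3 and Cufflinks 2.2.1 with mm10. For the use of strand and the gene models, nothing was given in the sources used here. Per the labels' protocols, RNA was amplified before library construction, so reads are not independent molecules.

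Counts were tested with edgeR 4.0.16 (quasi-likelihood, TMM factors, filterByExpr, group as the only term, Benjamini-Hochberg adjustment over 14345 genes, two-sided, called under 0.05) in R 4.3.3, and the steps were tested on simulated data. No 2 libraries were repeats (chi-square over its degrees of freedom 25.1 or more in all 15 pairs). Exact 95% intervals of read ratios were conditional binomial (scipy 1.17.1). Both groups carry replicate numbers 1 to 3, and deviations of same-numbered libraries had correlations of 0.168 to 0.363 and other pairs reached 0.0891 at most, so a fit with the number as a block is given where it changes a call. That pairing comes from the data, not the labels.

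Members, gene lists and motifs were chosen with earlier results of these data known. Named with every library were members that were called, reactivated or above 5 CPM on average in either group, and others by class. From other lists, called genes and markers near zero were named. Acr, Cpeb1 and the repressor and follicle genes with levels were named with their values known, and so were the neighbours. Gene coordinates are from GENCODE M21 (GRCm38). Alternatives were other size factors, filters, DESeq2 1.42.0, limma-voom (limma 3.58.1), the block, other read limits and leaving out each library.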

Additional observations from a re-analysis of the deposited data

How the results depend on the processing

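The count of called members was 3, stayed between 2 and 3 without any 1 library, and was 5 with DESeq2 and 5 with the replicate block, which called Stag3 and Spo11 besides. Rbm46 and Tdrd1 were called in all 13 alternatives and Tdrd7 in 10, and 0 members were called down in any of the 13. Over all genes 430 were called, against 986 with DESeq2, 1345 with the replicate block and 163 to 664 without 1 library. Without filter Stag3 was called too. The log2 fold change of Syce2 was -0.061 without control 3 and -0.00 without mutant 2, and ran from -0.06 to 0.54 without 1 library. The reactivated members were 0 with limits of 3 summed control reads and 5 reads per mutant library, because Rbm46 has 4 control reads, 2 with limits of 30 and 20 reads (Dmc1 added), and 1 to 2 without 1 library. Other germline genes called up were 3 with the replicate block and 1 to 2 without 1 library (Hspa2 added without control 3). Of the repressor genes, 3 were called with DESeq2 and 4 with the replicate block, against 1. The block changed no other call of a member. Where a count moved, the cause was not tested. Depth limits the 27 members that could not be tested: a rise of a few reads would not be detectable.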
